A study of Mus musculus with 9 samples.

Results

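The 7 genes described here encode small structured RNAs: Vaultrc5 (the vault RNA), Rmrp and Rpph1 (the RNA components of RNase MRP and RNase P), Rny1 and Rny3 (Y RNAs), Rn7sk (7SK RNA) and Terc (the telomerase RNA). They are 7 of 19933 genes that had at least 1 probe set naming that gene alone, and they were read from 8 probe sets, since Rn7sk had 2. The group was put together because Vaultrc5 was high in knockout tissue, and the ribonuclease and telomerase RNAs were set beside it. The values of Vaultrc5 in comparisons with the knockout are therefore given as a description, with no test. All 7 genes passed the filter on dim signals, which asked for a value above the 40th percentile of the array on at least 3 of 9 arrays.

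Total RNA of whole mouse yolk sacs, taken at embryonic day 9.5, was hybridised to Affymetrix arrays with probes along whole transcripts. There were 3 knockout samples (KO, Rnh1-/-), 3 heterozygous samples (HET, Rnh1+/-) and 3 wild-type samples (WT, Rnh1+/+), each on 1 array, all untreated and on a mixed SV 129/C57BL/6 background. The product of Rnh1 is the ribonuclease inhibitor, which binds secreted ribonucleases of the pancreatic type tightly when they reach the cytosol and blocks them. The deleted part of the gene, the embryos' sex and the number of yolk sacs in a sample are not given in the labels. Nothing states that replicates came from separate animals, so p-values measure only the spread among these 9 samples, which may be technical. Values are log2 signals, and differences are log2 differences of genotype means with the standard error (SE) of limma, a linear model fitted to all 13207 genes that passed the filter. Adjusted p-values are limma's, corrected by the Benjamini-Hochberg method over all those genes, with the threshold at 0.05.

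These RNAs are not translated. Each folds into a fixed shape and works inside a particle of RNA and protein. Vault RNA sits in the vault, a barrel-shaped particle of the cytoplasm whose shell is built from the major vault protein. RNase P trims the leading end of transfer RNA precursors, and RNase MRP, which shares most of its proteins, cleaves the precursor of ribosomal RNA. Y RNAs bind the Ro60 protein, which takes part in the quality control of small RNAs. 7SK RNA holds the elongation kinase P-TEFb in an inactive particle, and telomerase RNA carries the template from which telomere repeats are copied. RNA polymerase III makes all of them except telomerase RNA, which RNA polymerase II makes.

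Rnh1 itself read 6.28, 6.78 and 6.87 on the KO arrays, 9.75, 9.75 and 9.77 on the HET arrays and 10.39, 10.42 and 10.32 on the WT arrays. The place of its probe set relative to the deletion is not known. The KO arrays stood apart from the other 6 on the first principal component, which held 51.8% of the variance. KO 1 and WT 2 lay at one end of the next component, which held 18.7%. The array medians ran from 7.07 to 7.20. Xist, transcribed from the inactive X chromosome, was high (10.56 to 11.67) on all 3 KO arrays, on HET 2 and on WT 2 and WT 3, and low (5.15 to 5.76) on the other 3. The Y-linked gene Eif2s3y read 7.62, 7.27 and 4.41 on the KO arrays, 8.68, 7.87 and 8.48 on the HET arrays and 8.81, 8.15 and 4.34 on the WT arrays. Both were high on KO 1, KO 2, HET 2 and WT 2, so those 4 samples held transcripts of both sexes, and the sex of the tissue was not balanced between genotypes. Markers of the visceral endoderm, the outer layer of the yolk sac, were bright on average. The mean of the 9 ran from 12.17 to 12.35 on KO arrays, 12.35 to 12.54 on HET arrays and 12.40 to 12.50 on WT arrays.

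Vaultrc5 was the member with the widest difference. It read 8.51, 8.73 and 8.40 on the KO arrays, 7.07, 7.11 and 7.06 on the HET arrays and 6.95, 7.44 and 6.92 on the WT arrays. Every KO array lay above every HET and WT array, with a gap of 0.96 between the lowest KO and the highest WT value and of 1.29 between the lowest KO and the highest HET value. The means were 8.55 ± 0.17 in KO, 7.08 ± 0.03 in HET and 7.10 ± 0.29 in WT (SD, n = 3 arrays each). The KO mean was 2.72-fold the WT mean (log2 1.45, SE 0.14) and 2.77-fold the HET mean (log2 1.47, SE 0.14). Among all 13207 genes this was the difference of rank 4 from the top for KO against WT and of rank 9 for KO against HET. Within its array the signal ranked at percentiles 66.2 to 70.7 in KO and 47.0 to 54.3 on the HET and WT arrays. The HET and WT values thus lay near the array median, above the level of the filter on every array (6.92 against 6.49 on WT 3, the lowest), and no background level was measured.

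The HET arrays did not differ from the WT arrays in Vaultrc5 beyond their spread (log2 -0.02, 95% interval -0.33 to 0.28, limma adjusted p = 0.995). WT 2 was the highest of the 6 arrays with at least 1 intact copy of Rnh1. Without WT 2 the HET minus WT difference was 0.14, with the sign turned, and it did not pass the test either. The KO minus WT difference was 1.63 without WT 2 and KO 1, 1.48 with the Y-linked gene Eif2s3y as a covariate and 1.40 with Xist as a covariate. Leaving out each array in turn gave 1.35 to 1.61.

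**Figure D1:**
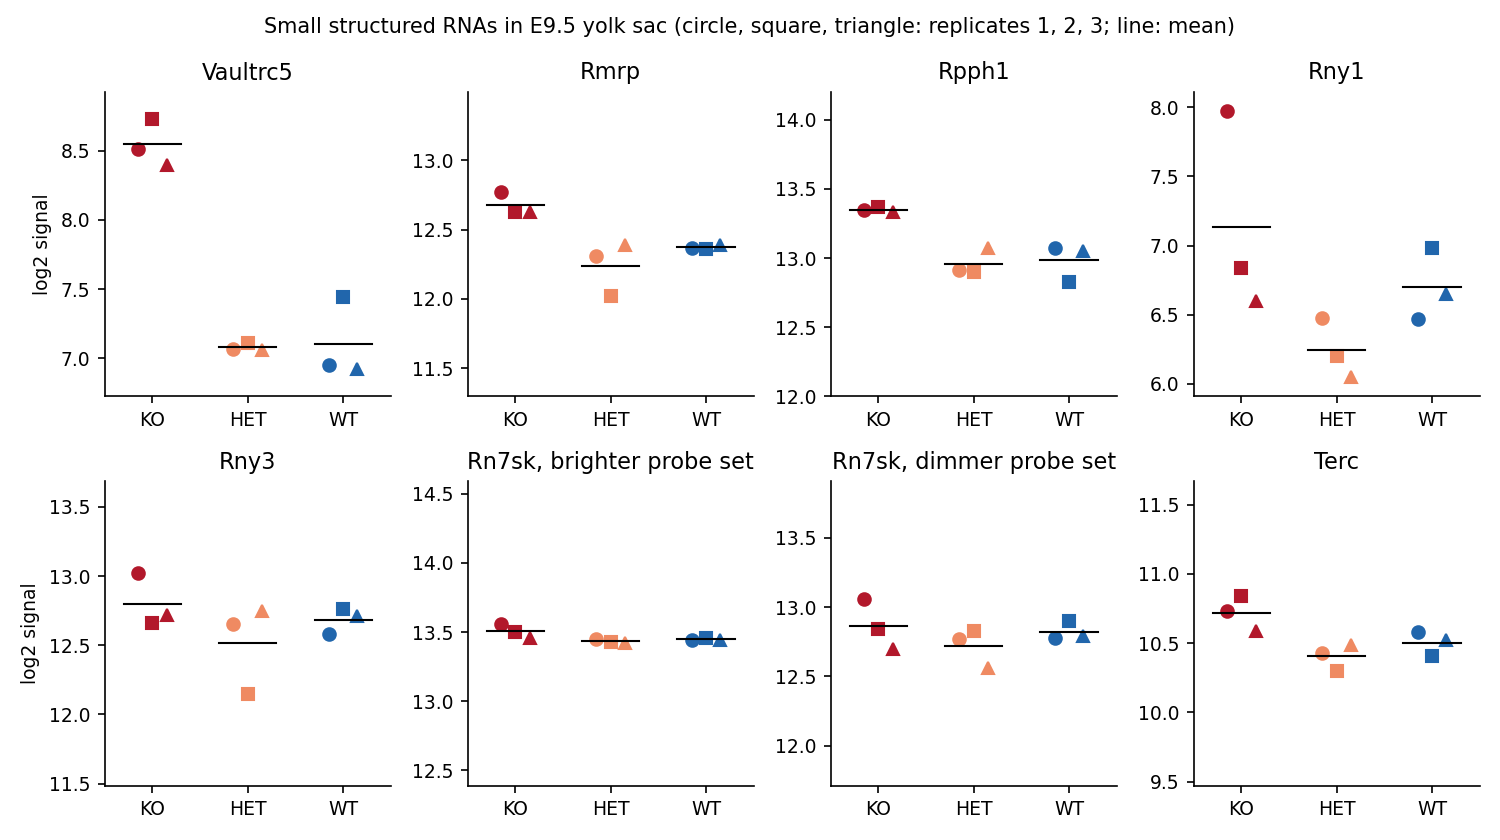
Log2 signal (vertical axes, each spanning the same number of log2 units) of the 8 probe sets on the 3 KO, 3 HET and 3 WT arrays, with circles, squares and triangles for replicates 1, 2 and 3 and a line at each mean. Vaultrc5 lies at 8.40 to 8.73 in KO, clear of 7.06 to 7.11 in HET and 6.92 to 7.44 in WT, while Rn7sk is flat across genotypes and KO 1 stands alone for Rny1.

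The catalytic RNA of RNase P, Rpph1, rose in KO by a smaller amount. It read 13.35, 13.37 and 13.33 on the KO arrays, 12.91, 12.90 and 13.07 on the HET arrays and 13.07, 12.83 and 13.05 on the WT arrays. The 3 KO arrays lay within 0.04 of each other and above all 6 others, at percentiles 99.8 to 99.9 of the array, and whether differences are compressed that near the top of the range was not tested. KO exceeded WT by 0.36 (SE 0.08, 95% interval 0.19 to 0.54, 1.29-fold, limma adjusted p = 0.0118) and HET by 0.39 (SE 0.08, 95% interval 0.21 to 0.57, 1.31-fold, adjusted p = 0.00916). HET and WT arrays were mixed, with a difference of -0.03 (95% interval -0.20 to 0.15, adjusted p = 0.975).

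Rmrp, the RNA of RNase MRP, was also higher in KO. It read 12.77, 12.63 and 12.63 on the KO arrays, 12.31, 12.02 and 12.39 on the HET arrays and 12.37, 12.36 and 12.39 on the WT arrays. No KO array overlapped with any other, and HET 2 was the lowest of the 9. Against WT the difference was 0.30 (SE 0.09, 95% interval 0.09 to 0.51, 1.23-fold, limma adjusted p = 0.0476), close to the threshold. That call was lost when any single WT or KO array or HET 1 was left out (adjusted p 0.0659 to 0.119), without WT 2 and KO 1 (0.24, adjusted p = 0.171) and with arrays centred on their medians (0.23, adjusted p = 0.101). The same call was lost with no filter (limma adjusted p = 0.0703), with Eif2s3y as a covariate (0.0598) and in a fit over 17351 probe sets (0.0546). Against HET the difference was 0.44 (SE 0.09, 95% interval 0.22 to 0.65, 1.35-fold, adjusted p = 0.0125), and it passed with each array left out in turn (adjusted p 0.0112 to 0.033). HET and WT arrays did not differ beyond their spread (-0.13, 95% interval -0.35 to 0.08, adjusted p = 0.939).

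Terc had a difference of like direction and smaller size. It read 10.73, 10.84 and 10.59 on the KO arrays, 10.43, 10.30 and 10.49 on the HET arrays and 10.58, 10.41 and 10.52 on the WT arrays. The lowest KO array lay only 0.01 above the highest WT array. KO exceeded WT by 0.22 (SE 0.08, 95% interval 0.03 to 0.41), which did not pass (limma adjusted p = 0.0879), although it did without KO 3 (0.29, adjusted p = 0.0476) and after quantile normalization (0.30, adjusted p = 0.0369). KO exceeded HET by 0.32 (SE 0.08, 95% interval 0.13 to 0.51, 1.25-fold), which passed (adjusted p = 0.0273). The pass against HET was lost without HET 1 (adjusted p = 0.0709), HET 2 (0.0995), KO 1 (0.0502) or KO 2 (0.0803). HET minus WT was -0.10 (95% interval -0.29 to 0.09, adjusted p = 0.939).

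Of the Y RNAs, Rny1 varied most between arrays of 1 genotype. It read 7.97, 6.84 and 6.60 on the KO arrays, 6.48, 6.20 and 6.05 on the HET arrays and 6.47, 6.98 and 6.65 on the WT arrays. KO 1 stood alone at the top, and the other KO arrays lay among the WT arrays. The KO minus WT difference was 0.44 (SE 0.31, 95% interval -0.27 to 1.14, limma adjusted p = 0.329), and without KO 1 it was 0.02 (adjusted p = 0.929). KO minus HET was 0.89 (SE 0.31, 95% interval 0.19 to 1.60, adjusted p = 0.0719), and without KO 1 it was 0.48. That difference passed without KO 3 (1.16, adjusted p = 0.0357) and without WT 2 and KO 1 (0.48, adjusted p = 0.0408). Rny1 was the dimmest member: all 3 HET arrays fell below the level of the filter, so HET values near that floor are poorly resolved.

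Rny3 was bright and did not differ between genotypes beyond its spread. It read 13.02, 12.66 and 12.72 on the KO arrays, 12.65, 12.15 and 12.75 on the HET arrays and 12.58, 12.76 and 12.71 on the WT arrays. The groups overlapped in every pair of genotypes. The KO minus WT difference was 0.11 (SE 0.15, 95% interval -0.24 to 0.46, limma adjusted p = 0.614), so an increase of the size seen for Rpph1 lay inside its interval. KO minus HET was 0.28 (SE 0.15, 95% interval -0.07 to 0.63, adjusted p = 0.237), and HET minus WT was -0.17 (adjusted p = 0.939).

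Rn7sk had the narrowest intervals. Its brighter probe set read 13.56, 13.50 and 13.46 on the KO arrays, 13.45, 13.43 and 13.42 on the HET arrays and 13.44, 13.46 and 13.44 on the WT arrays. The KO minus WT difference was 0.06 (SE 0.05, 95% interval -0.06 to 0.17, limma adjusted p = 0.428). The upper end of that interval lies below the point estimates for Rpph1 and Rmrp, but the 95% interval of Rmrp (0.09 to 0.51) overlaps it. Differences between genes were not tested. For Rn7sk, KO minus HET was 0.07 (SE 0.05, adjusted p = 0.344). Its signal ranked at percentiles 99.9 to 100.0 of the array, at the top of the measured range, and whether differences are compressed there was not tested. Its dimmer probe set read 13.06, 12.84 and 12.70 on the KO arrays, 12.77, 12.83 and 12.56 on the HET arrays and 12.78, 12.90 and 12.79 on the WT arrays. It gave 0.05 for KO minus WT (SE 0.10, limma adjusted p = 0.771 over 17351 probe sets) and 0.15 for KO minus HET (adjusted p = 0.359), and its groups overlapped.

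Over the 6 members other than Vaultrc5, the KO minus WT differences ran from 0.06 to 0.44 with a median of 0.26, against a median of -0.0046 over all genes tested. All 6 were above 0, as were 49.1% of all genes. Rmrp, Rpph1 and Terc had KO arrays entirely above the WT arrays (15.8% of all genes), and Rpph1 and Rmrp passed the test as higher (8.27% of all genes, with 23.5% passing in either direction). For KO minus HET the 6 ran from 0.07 to 0.89 with a median of 0.35, against -0.0145 over all genes, of which 46.7% were above 0. All but Rny3 had KO arrays entirely above the HET arrays (15.7% of all genes). For Rn7sk that gap was only 0.01 and its dimmer probe set overlapped, and the HET values of Rny1 lay below the filter level. Rmrp, Rpph1 and Terc passed as higher (8.17% of all genes, with 21.8% passing in either direction). The KO arrays enter both comparisons, so the differences against HET are no separate evidence for those against WT. HET minus WT lay between -0.45 and -0.02 for these 6, and none passed (smallest adjusted p = 0.939). In that comparison 0% of all 13207 genes passed in limma, with 327 at an unadjusted p under 0.05. Rnh1 itself was lower in HET by this measure with no overlap of the groups (-0.62, SE 0.13) and did not pass (adjusted p = 0.939), although it did without KO 1 (adjusted p = 0.0224), so a p that misses the threshold here does not show that HET and WT were alike.

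**Figure D2:**
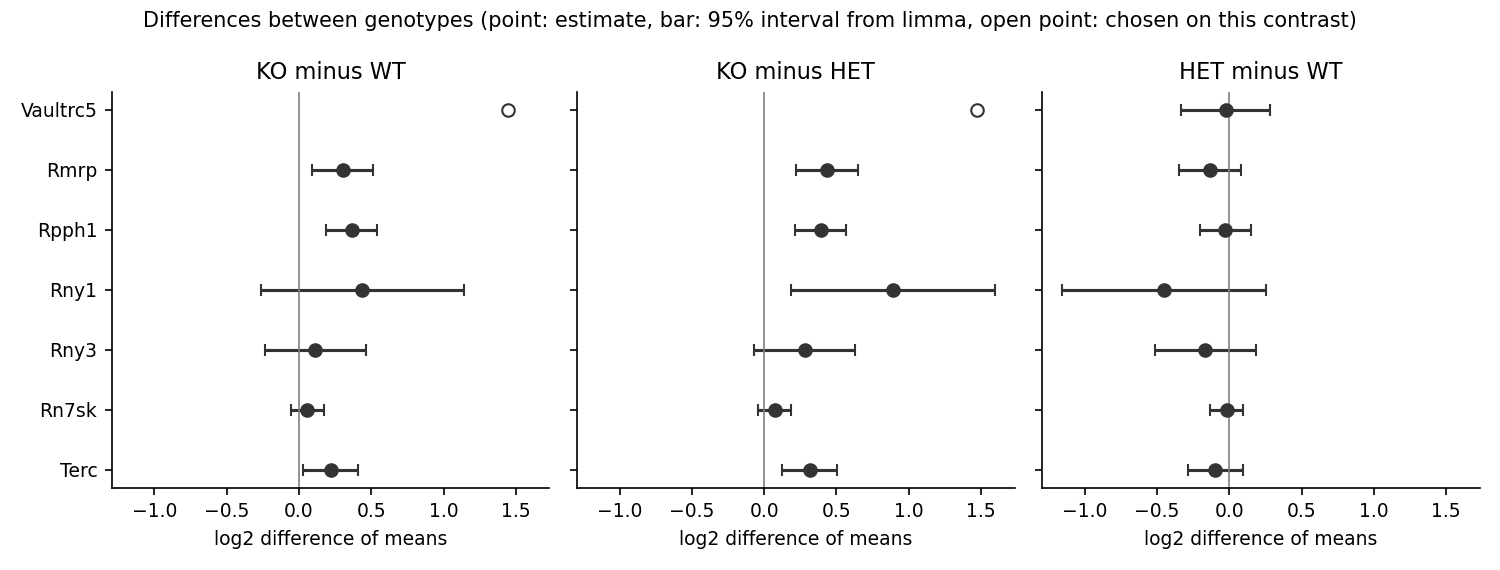
Log2 differences of genotype means (horizontal axes) for the 7 members in KO minus WT, KO minus HET and HET minus WT, with bars for limma's 95% intervals and open points without a bar where Vaultrc5 was chosen on that contrast. Vaultrc5 lies at 1.45 and 1.47 in the KO panels, the other 6 lie between 0.06 and 0.89 there, and all 7 intervals of HET minus WT span 0.

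In whole tissue, fewer cells of a type and less RNA per cell cannot be told apart, and this holds for every difference given here. The mean of 4 extraembryonic mesoderm markers ran from 10.83 to 10.98 on KO arrays, 10.60 to 10.66 on HET arrays and 10.57 to 10.67 on WT arrays. The mean of 4 macrophage markers ran from 7.07 to 7.33 in KO, 7.52 to 7.62 in HET and 7.50 to 7.71 in WT, with Ptprc below the filter. The mean of 5 of 6 primitive erythroid markers ran from 11.54 to 11.94 in KO, 11.86 to 12.12 in HET and 11.94 to 12.07 in WT. The mean of 4 of 7 trophoblast markers ran from 8.09 to 9.66 in KO, highest on KO 3, against 7.54 to 7.99 in HET and 7.66 to 8.14 in WT, with Tpbpa below the filter. Hand1 enters both the trophoblast and the extraembryonic mesoderm mean, so they are not separate readings. The mean of 5 markers of maternal decidua ran from 7.84 to 8.21 in KO, 6.90 to 7.69 in HET and 7.37 to 7.99 in WT, with Pgr below the filter. The mean of 5 parietal endoderm markers ran from 9.11 to 9.40 in KO, 9.23 to 9.31 in HET and 9.28 to 10.56 in WT, with WT 1 (10.03) and WT 3 (10.56) above all other arrays. The mean of 4 endothelium markers ran from 10.06 to 10.19 in KO, 10.07 to 10.26 in HET and 10.16 to 10.28 in WT. For 4 neural markers of the embryo proper the mean was 5.78, 6.01 and 6.65 on the KO arrays, highest on KO 3. It ran from 5.86 to 6.00 in HET and 5.77 to 5.97 in WT, with Sox2, Pax6 and Neurod1 below the filter. The part of these mixtures in the member differences was not tested.

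The transcripts of the proteins that hold these RNAs were counted against all genes tested, of which 23.5% passed in KO against WT, 8.27% as higher and 15.2% as lower. Of the proteins that form or modify the vault RNA particle, 4 of 6 listed had a probe set, and only Mvp passed, as lower. Mvp encodes the major vault protein, the shell of the particle that carries vault RNA. It read 9.37, 9.59 and 9.63 on the KO arrays, 10.45, 10.08 and 10.10 on the HET arrays and 10.26, 10.33 and 10.08 on the WT arrays. All KO arrays lay below all others, and the share of all genes with such a gap downward was not counted. In KO the vault RNA and the vault shell transcript stood in opposite directions. Vaultrc5 was chosen for its rise, so this contrast is a description only. The Mvp difference was -0.69 against WT (SE 0.12, limma adjusted p = 0.00486) and -0.68 against HET (adjusted p = 0.00502). For Mvp, HET minus WT was -0.01 (adjusted p = 0.997). Of the other 3, Nsun2, which methylates vault RNA in human cells, differed by -0.09 (adjusted p = 0.369), Srsf2, which binds it there, by -0.01 (adjusted p = 0.913), and Ssb, the La protein that binds new polymerase III transcripts, by 0.06 (adjusted p = 0.55).

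All 11 listed proteins of RNase P and RNase MRP were tested. In KO against WT 1 rose (8.27% of all genes), 1 fell (15.2% of all genes) and 9 did not pass, with a median of -0.04. Rpp25l, a paralogue of the subunit Rpp25, read 8.60, 8.41 and 8.38 on the KO arrays, 8.23, 8.08 and 8.14 on the HET arrays and 8.04, 8.04 and 7.97 on the WT arrays. Its KO arrays were the 3 highest, above all WT arrays (15.8% of all genes) and all HET arrays (15.7% of all genes). Rpp25l exceeded WT by 0.45 (SE 0.07, limma adjusted p = 0.00411) and HET by 0.31 (adjusted p = 0.017). The subunit Rpp40 read 7.52, 6.99 and 7.01 on the KO arrays, 7.76, 7.87 and 7.48 on the HET arrays and 7.85, 7.96 and 7.74 on the WT arrays. It was lower in KO than in WT (-0.68, SE 0.15, adjusted p = 0.0134) and HET (-0.53, adjusted p = 0.0351), with KO 1 overlapping the HET arrays.

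Of 6 tested Y RNA binding proteins, 1 fell in KO against WT (15.2% of all genes fell) and 5 did not pass. The one that fell was Pnpt1, a polynucleotide phosphorylase that resides mainly in mitochondria. It read 9.56, 9.46 and 9.73 on the KO arrays, 9.98, 9.97 and 9.93 on the HET arrays and 10.02, 10.15 and 9.94 on the WT arrays, with KO the lowest throughout (KO minus WT -0.46, SE 0.08, limma adjusted p = 0.00544). The share of all genes with KO lowest throughout was not counted. Ro60, the main Y RNA partner, is named for that role although it lies outside the naming rule. It was 0.23 higher in KO than in WT without passing (SE 0.09, adjusted p = 0.0869) and passed against HET (0.30, adjusted p = 0.0342).

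Of 7 tested components of the 7SK particle and of P-TEFb, 2 rose in KO against WT (8.27% of all genes rose). None fell (15.2% of all genes fell) and 5 did not pass, with a median of 0.01. Hexim1, the inhibitor that 7SK RNA brings to the kinase, read 9.42, 9.47 and 9.28 on the KO arrays, 9.06, 8.86 and 8.91 on the HET arrays and 8.97, 9.12 and 8.91 on the WT arrays. Its KO arrays lay above all WT arrays (15.8% of all genes) and all HET arrays (15.7% of all genes). The difference was 0.39 against WT (SE 0.08, limma adjusted p = 0.0115) and 0.45 against HET (adjusted p = 0.00666). Cdk9, the kinase of P-TEFb, rose by 0.26 (SE 0.06, adjusted p = 0.0184), a call lost without KO 2 or any single WT array (adjusted p 0.0529 to 0.0566), with centred arrays (0.0643) and with only KO and WT arrays (0.052). Against HET the same 2 and Mepce, which caps 7SK RNA, passed as higher (8.17% of all genes). Mepce differed from HET by 0.43 (adjusted p = 0.0119). Mepce is named after its values were seen, and against WT it did not pass (0.28, adjusted p = 0.0574).

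Of 15 tested genes of telomerase and of the shelterin complex that covers telomeres, only Gar1 passed in KO against WT. It was higher (8.27% of all genes were), and 14 did not pass. Gar1 encodes a protein of the particle to which telomerase RNA belongs, and its difference was 0.23 (SE 0.07, limma adjusted p = 0.0434). Leaving out KO 1 kept the call, and leaving out any of the other 8 arrays ended it (adjusted p 0.0571 to 0.124). Against HET none of the 15 passed (21.8% of all genes passed in either direction). Tert, the catalytic subunit, and Dkc1, the pseudouridine synthase that binds telomerase RNA, are named for their roles outside the naming rule. They differed from WT by 0.11 (adjusted p = 0.286) and -0.17 (adjusted p = 0.152).

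RNA polymerase III and the factors that direct it were read from lists of their own. Of 17 tested RNA polymerase III subunits, 1 rose and 1 fell in KO against WT, with a median of -0.03, against 8.27% of all genes higher and 15.2% lower. Polr3b, which encodes a core subunit, was lower (-0.33, SE 0.07, limma adjusted p = 0.0122). Polr1c, a subunit shared with polymerase I, was higher by 0.26 (SE 0.08, adjusted p = 0.0492), a call that ended without any one array except KO 1 (adjusted p 0.059 to 0.121). Of 16 tested factors that direct polymerase III, only Snapc3 passed, as higher (0.23, SE 0.06, adjusted p = 0.031), and the median was 0.04. Snapc3 belongs to the complex that binds the promoters of small nuclear RNA genes, and its call was lost without WT 1, WT 3, HET 2 or KO 3 (adjusted p 0.0504 to 0.113), with centred arrays (0.16, adjusted p = 0.144), with no filter (0.0519), with only KO and WT arrays (0.0542) and with Xist as a covariate (0.0908).

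A list of RNA decay genes held the exosome, which degrades RNA from its 3′ end, its helpers and the 5′ to 3′ exonucleases Xrn1 and Xrn2. Of its 21 tested genes, 4 fell in KO against WT (15.2% of all genes fell), none rose and 17 did not pass. The median was -0.11. They were Dis3l, the nuclease of the cytoplasmic exosome (-0.35, SE 0.07, limma adjusted p = 0.0104), Mtrex, the helicase that feeds the nuclear exosome (-0.31, adjusted p = 0.0154), Xrn2, the nuclear one of the pair (-0.29, adjusted p = 0.0194), and Dis3l2, which degrades uridylated RNAs (-0.30, adjusted p = 0.0408). Dis3l2 is named after its values were seen. Mtrex lost its call without WT 1 or WT 2, and Xrn2 without WT 1, WT 2, KO 2 or KO 3 (adjusted p 0.0521 to 0.0697). Dis3l2 lost its call without any one array except WT 3 or KO 1 (adjusted p 0.0528 to 0.134). With Xist as a covariate, Xrn2 (adjusted p = 0.0592) and Dis3l2 (0.0953) lost their calls. Dis3l2 also lost it with no filter (0.0611), with only KO and WT arrays (0.0853) and with Eif2s3y as a covariate (0.0571). Mtrex lost its call after quantile normalization (0.0552) and without WT 2 and KO 1 (0.0723). The count of genes past the test as lower rested on single arrays and on the setting. It was 1 without WT 1 or without WT 2, 2 without KO 2 or without KO 3, and 8 without KO 1. It was 2 with Xist as a covariate and 10 with array weights. The 7 ribonuclease A family genes with a probe set were all below the filter and were not tested.

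**Figure D3:**
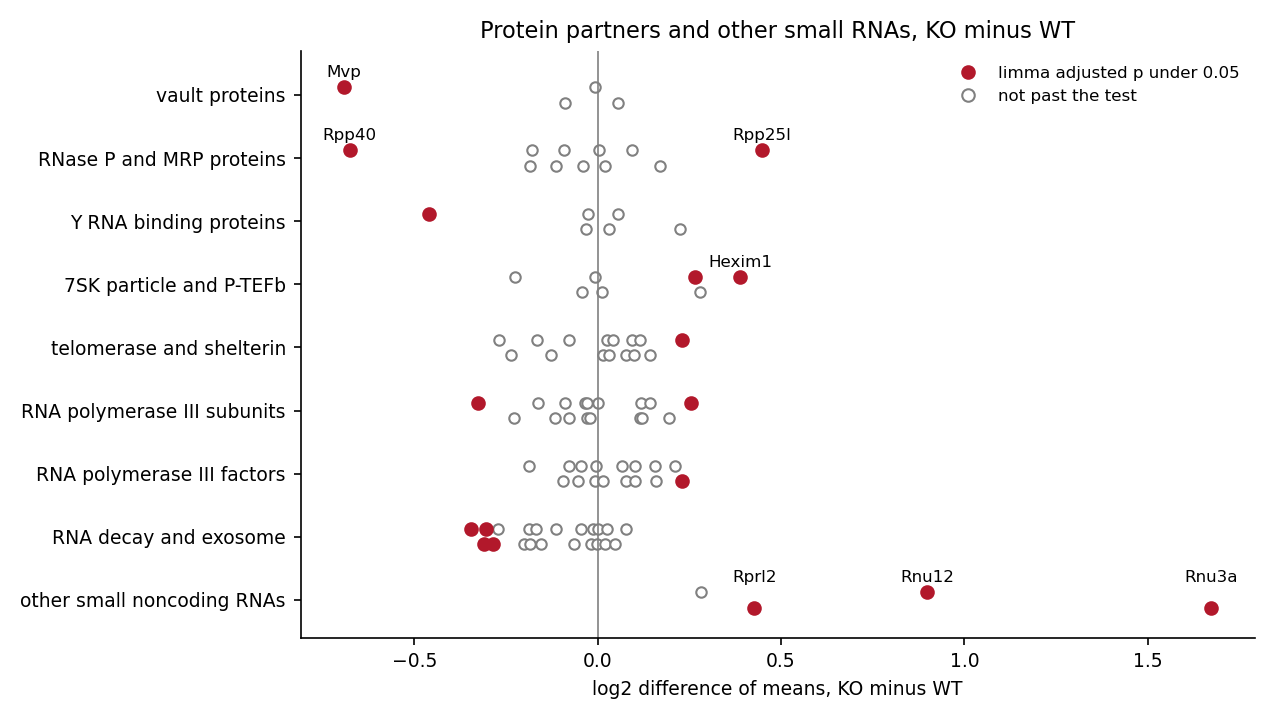
Log2 difference of means, KO minus WT (horizontal axis), for every tested gene of the 9 lists of partners and other small RNAs with a tested gene, filled where the limma adjusted p is under 0.05 and open where it is not. Mvp at -0.69 and Rpp40 at -0.68 are the lowest points and Rnu3a at 1.67 is the highest, while most partner proteins lie around 0.

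Other small noncoding RNAs were read from the same arrays. Of 28 listed, 7 had a probe set naming them alone and 4 passed the filter, of which 3 rose in KO against WT (8.27% of all genes rose) and none fell. Rnu3a, a U3 small nucleolar RNA that guides the cleavage of ribosomal RNA precursors, read 10.22, 10.16 and 9.66 on the KO arrays, 8.51, 7.99 and 8.19 on the HET arrays and 8.38, 8.22 and 8.41 on the WT arrays. Its KO arrays lay more than a full log2 unit above all others (KO minus WT 1.67, SE 0.17, limma adjusted p = 0.0011), and its difference was larger than that of Vaultrc5. Rnu12, the U12 RNA of the minor spliceosome, read 7.53, 7.98 and 7.68 on the KO arrays, 6.86, 6.96 and 7.0 on the HET arrays and 6.91, 6.73 and 6.85 on the WT arrays. It rose by 0.90 against WT (SE 0.11, limma adjusted p = 0.00166). Every KO array lay above every WT array (15.8% of all genes) and every HET array (15.7% of all genes), while HET and WT overlapped. Rnu3a and Rnu12 are polymerase II products, like Terc and unlike Vaultrc5. Whether the polymerase bears on the differences of these RNAs was not tested.

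Rprl2, a gene named as similar to the RNase P RNA, read 9.89, 9.95 and 9.76 on the KO arrays, 9.30, 9.53 and 9.57 on the HET arrays and 9.52, 9.23 and 9.57 on the WT arrays. Its KO arrays lay above all WT arrays (15.8% of all genes) and all HET arrays (15.7% of all genes). Rprl2 rose by 0.43 against WT (SE 0.11, limma adjusted p = 0.022). The call was lost without WT 2 (adjusted p = 0.065) or KO 2 (adjusted p = 0.0708). The same held without WT 2 and KO 1 (adjusted p = 0.0822) and with Xist as a covariate (adjusted p = 0.0562). Rprl1, named for its likeness to Rpph1, differed from WT by 0.28 without passing (adjusted p = 0.0867) and passed against HET (0.35, adjusted p = 0.0445). Probes of such copies may share target sequence with Rpph1, which was not tested, so these may not be independent readings of separate genes. The same caution holds for Y RNAs and 7SK RNA, which have many copies and pseudogenes.

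Across the 9 arrays, the pattern of Vaultrc5 correlated most with Rpph1 (r = 0.83), Rmrp (0.80), Rn7sk (0.79) and Terc (0.77) among the members, less with Rny1 (0.63) and least with Rny3 (0.42). These values follow mainly the split between KO and the other arrays: with each genotype's mean removed, Vaultrc5 had r of -0.64 with Rpph1, -0.16 with Rmrp, 0.27 with Rn7sk, -0.09 with Terc, 0.25 with Rny1 and -0.01 with Rny3. Some other pairs kept a high value after that step. Rmrp and Rny3 had 0.83 over all arrays and 0.95 within genotypes, with HET 2 the lowest array and KO 1 the highest for both. Rny1 and Rn7sk had 0.94 and 0.95, with KO 1 the highest and HET 3 the lowest for both. Rpph1 and Terc had 0.90 and 0.71. The points share their arrays and the normalization between them, and 9 arrays in 3 groups are few.

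The genes whose pattern over the 9 arrays lay closest to Vaultrc5 were Samsn1 (r = 0.992), Polr2m (0.989), Sertad4 (0.989), Edn1 (0.983), Snhg5 (0.982) and Leng8 (0.979). Vaultrc5 was chosen for its rise in KO, so this ranking mainly picks genes that separate the KO arrays from the rest. Correlations with genotype means removed were not computed for the genes named here, and no link to Vaultrc5 was tested. Edn1 encodes endothelin 1, a vasoconstrictor peptide, and Snhg5 is a host gene of small nucleolar RNAs. The most opposite were Rmdn3 (-0.983), Copg1 (-0.978), a coat protein of transport vesicles, and Nars (-0.977), the asparaginyl transfer RNA synthetase. At a looser cut, 357 of 13206 genes compared had r above 0.9 and 338 had r below -0.9, so the named genes are the ends of longer lists. The sizes differed among these genes: KO minus WT was 1.34 for Edn1, 0.81 for Snhg5 and 0.20 for Polr2m, and -0.25 for Copg1.

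**Figure D4:**
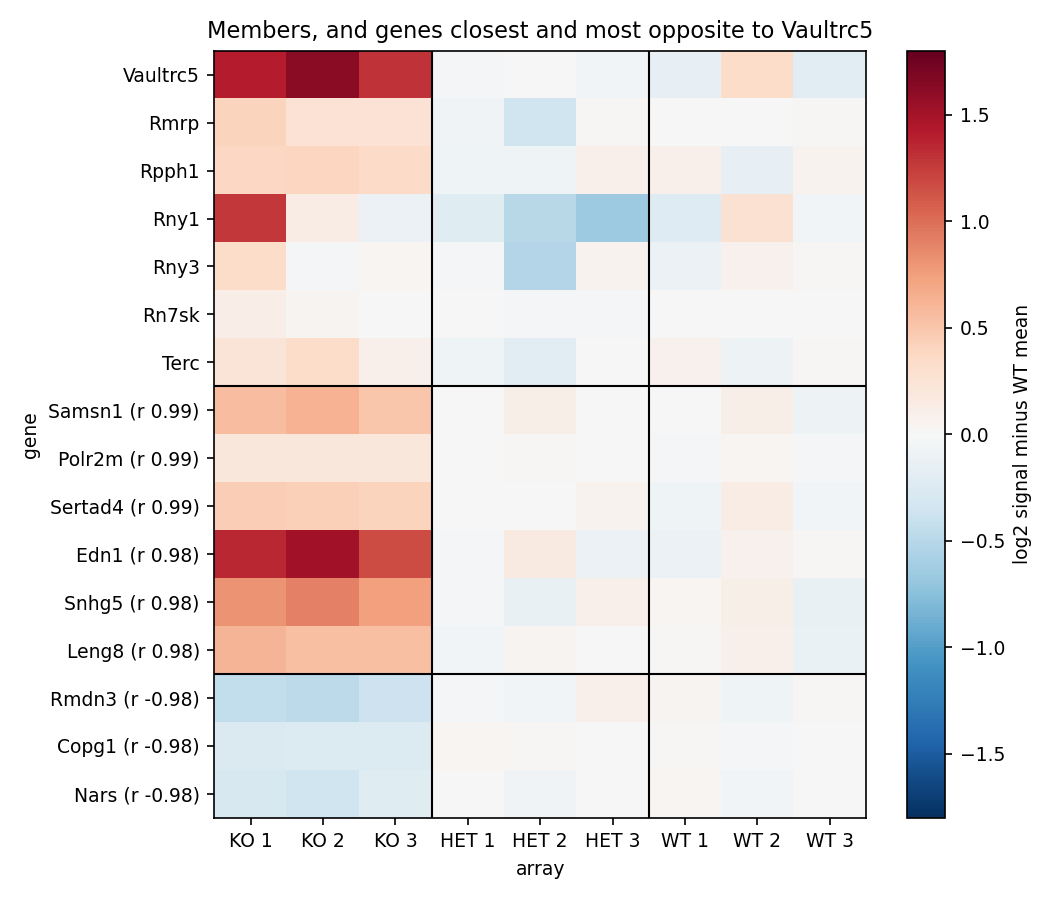
Log2 signal minus the WT mean of the same gene (colour scale) on the 3 KO, 3 HET and 3 WT arrays, for the 7 members (top), the 6 genes closest to Vaultrc5 (middle) and the 3 most opposite (bottom), with r to Vaultrc5 beside each name. Vaultrc5, Edn1 and Snhg5 are raised on all 3 KO arrays, while Rny1 is raised mainly on KO 1 and Rny3 is lowest on HET 2.

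Genes next to the members in the RefSeq gene order (mouse assembly GRCm38.p6) were read as well. Of 6 such neighbours that were tested, 1 passed in KO against WT (23.5% of all genes passed), and their differences ran from -0.33 to 0.10. Zmat2 and Gm6756, on either side of Vaultrc5, differed by 0.01 (limma adjusted p = 0.963) and -0.07 (adjusted p = 0.41), against 1.45 for Vaultrc5 between them. Ccdc107 beside Rmrp differed by 0.01 (adjusted p = 0.868) and Parp2 beside Rpph1 by -0.16 (adjusted p = 0.17). Pdia4, next to Rny1, was the one that passed, as lower (-0.33, adjusted p = 0.0047). Rny1 and Rny3 are themselves neighbours, and their KO minus WT differences were 0.44 and 0.11, neither past the test.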

How the data were processed

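Total RNA was prepared with a silica column kit and 100 ng was amplified and labelled, per the labels' protocols; such columns can lose short RNAs, so levels of RNAs of this size depend on the preparation. The authors summarised and normalized the scans with RMA and deposited 1 log2 value per probe set and array; the submitters' processing notes name Affymetrix Expression Console 1.2.1.20. The array's genome build is not given in the sources used, and coordinates are left out. All 9 arrays were used; their number limits the precision.

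Of 28350 probe sets, 21780 named 1 gene, 1618 several and 4952 none. The brightest probe set stood for a gene. The filter kept 13207 genes and left out 6726. A single limma model (3.58.1, R 4.3.3) of all 9 arrays gave the 3 comparisons of genotypes. The code was tested on simulated data. The members, gene lists, tests and alternatives were chosen with earlier results of these data known. The naming rule took all members, Rnh1, up to 3 genes per list with the smallest p among those past the threshold, and the 6 closest and 3 most opposite genes to Vaultrc5. Neighbours came from the order of RefSeq genes; predicted genes were passed over among the closest genes. Alternatives changed the filter, scaling, prior, weights, arrays, block and covariates. Same-numbered arrays had correlations of -0.26 to 0.42 in their deviations, so replicate numbers were not taken as pairs.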

Additional observations from a re-analysis of the deposited data

How the results depend on the processing

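The KO minus WT and KO minus HET differences kept their direction for all 6 members other than Vaultrc5 under every alternative run, except Rn7sk, whose KO minus WT difference was -0.0099 with arrays centred on their medians. The number of these 6 past the threshold in KO against WT was 1, in place of 2, with no filter on dim genes, with centred arrays, without WT 2 and KO 1 and with Eif2s3y as a covariate, and 1 to 2 with each array left out; it was 3 with quantile normalization and with array weights. In KO against HET it was 2 to 4 with each array left out, 2 with only the genotypes compared and 4 without WT 2 and KO 1, in place of 3. The KO minus WT difference of Vaultrc5 was 1.66 with array weights. Its HET minus WT difference was 0.12 with array weights, 0.14 without WT 2 and KO 1 and 0.016 with Xist as a covariate, and ran from -0.12 to 0.14 with each array left out. HET minus WT ran from -0.28 to 0.016 for Rny3 and from -0.10 to 0.017 for Rpph1 with each array left out. Among neighbours, Zmat2 was -0.060 with centred arrays, -0.030 with array weights, -0.052 without WT 2 and KO 1 and -0.026 with Xist as a covariate, and Ccdc107 was -0.054 with centred arrays; with each array left out they ran from -0.091 to 0.076 and from -0.014 to 0.035. Genes past the threshold in KO against WT numbered 5753 with array weights and 2016 with Xist as a covariate, in place of 3101, and 1669 to 3842 with each array left out. In KO against HET they numbered 1739 with Eif2s3y and 843 with Xist as a covariate, in place of 2875, and 1508 to 3149 with each array left out. In HET against WT they numbered 6 with array weights and 4 without WT 2 and KO 1, in place of 0, and 0 to 5 with each array left out. Centred arrays moved the share of lower calls in KO against WT to 81.4%, in place of 64.8%. With the replicate number as a block, 3131 genes passed in KO against WT and 2853 in KO against HET; Gar1 and Polr1c lost their calls and Mepce gained one. Rny1 was not tested with the filter at the array median. The fit of array weights stopped short of its convergence tolerance. The cause of these shifts was not tested.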
